A study of Mus musculus with 6 samples.

Results

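All 4 diabetic mouse hearts of the series were compared, as 1 pooled group, with its 2 control hearts, so that all 6 RNA-seq libraries of the series entered. Each library was made from primary heart tissue of C57BL/6 mice, as ribosomal RNA-depleted, strand-marked total RNA. The diabetic mice were given a diet in which fat gave 60% of calories, from 12 weeks of age, together with 1 injection of streptozotocin, a toxin of the insulin-producing beta cells, at 75 mg/kg, and type 2 diabetes (T2D) was defined at week 20 of the diet. Control mice were kept on regular chow and are labelled as carrying no transgene. Every diabetic mouse also received an adeno-associated virus (AAV) through the jugular vein at 16 to 18 weeks from the streptozotocin dose. Hearts were studied 4 weeks later, at 5 to 6 months from the start of diet and streptozotocin. In 2 libraries the virus was empty (T2D empty vector), and in the other 2 it carried a FLAG-tagged dominant negative MCUb with the changes W246R and V251E (T2D dnMCUb). MCUb is a subunit of the mitochondrial calcium uniporter, the channel that lets calcium into the matrix. Diet and streptozotocin, and virus as far as the labels tell, separate the 4 diabetic libraries from the controls, so their parts cannot be told apart. Neither the vector's promoter nor the sex of the mice is given in the sources used here. The labels do not say that the libraries came from separate mice, so p-values measure only the spread between these libraries.

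The healthy heart burns mostly fatty acids, with glucose, lactate, ketone bodies and amino acids as further fuels. In diabetes, raised circulating fatty acids activate PPAR alpha, a nuclear receptor that turns on genes of fat oxidation, and insulin acts less on glucose uptake. Pyruvate dehydrogenase, the gate through which glucose carbon enters the mitochondrial citric acid cycle, is switched off by kinases of the PDK family. The heart also holds a circadian clock, in which BMAL1 (encoded by Arntl) and CLOCK drive the Per, Cry and Nr1d genes that repress them.

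The deposited values are rlog values, a log2 scale on which DESeq2 pulls noisy, low genes towards their mean, so differences are compressed and depth is unknown. A gene was taken as standing on one side when its lowest diabetic value lay above both controls or its highest lay below both, among the 13094 genes whose mean rlog was 5 or more. At that limit, the pseudogene Chchd2-ps had a mean rlog of 5.00012 and was kept, and Gm44187 had 4.99944 and was left out. All 12 markers of ventricular myocytes fixed for the tissue reached that level, and no marker of lung, thymus or oesophagus did. The libraries were not equally alike. The first principal component held 46.69% of the variance and set dnMCUb replicate 1 apart at 10.82, against -4.42 to 2.69 for the other 5. Array weights, which are low for a library that strays from its group, were 0.48 for dnMCUb replicate 1 and 0.78 to 1.54 for the others. They were computed with all 4 diabetic libraries as 1 group, so a difference between the arms can lower them as noise does. Over the tested genes, the median absolute difference between diabetic and control means was 0.0369, and the median SD over the 4 diabetic libraries was 0.0455.

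Mcub, the gene whose altered coding sequence the vector carries, did not separate the groups. Its rlog values were 5.42 and 5.47 in the controls, 5.48 and 5.46 with empty vector, and 5.62 and 5.47 with dnMCUb. Only dnMCUb replicate 1 stood clearly higher, and the pooled diabetic minus control difference was 0.06 (SE 0.05, unadjusted p = 0.221 in limma) and 0.02 without that library. These levels lie near the limit of 5, where rlog compresses differences. The authors' deposited log2 folds against control were 0.20 for empty vector and 0.85 for dnMCUb, neither with an adjusted p under 0.05. Whether the counting behind the table took in reads of the vector is not given in the sources used here, so these values do not test the labels. Mcu, the pore-forming subunit, differed by -0.06 (SE 0.03), -0.03 without control replicate 2, and overlapped the controls.

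No gene passed an adjusted p of 0.05 in the pooled comparison (0% of 13094; limma with Benjamini-Hochberg adjustment), and the smallest adjusted p was 0.0620, for Rhobtb1. At an unadjusted p under 0.05 there were 1241 genes (9.48%), 604 higher (4.61%) and 637 lower (4.86%) in the diabetic hearts. The call depended on how the libraries were weighted. With array weights limma called 24 genes, 11 higher and 13 lower, with robust variance estimates it called 7, and without dnMCUb replicate 1 or without dnMCUb replicate 2 it called 17 or 16. None of the statements below on single genes therefore rests on a passed test, and all give values. Genes named for the smallest p or the largest difference were taken from those on one side of both controls. Their lack of overlap follows from that choice.

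All 4 diabetic libraries stood above both controls for 1310 genes (10%) and below both for 1559 (11.9%), 2869 in all (21.9%). Of these genes, 45.7% stood above, and 35.3% did so when each library was centred on its own median. Most separations were narrow, with a median gap between the nearest diabetic and control libraries of 0.0193 for genes above and 0.0224 for genes below. A gap of at least 0.1 was reached by 160 genes (1.22%), 85 above and 75 below. A mean difference of at least 0.5 was reached by 10 genes above and 3 below, and one of at least 1 by 2 genes, both above. Pdk4 was 1 of these 2. With 1 library left out fewer libraries must agree, and the share of all genes above both controls, or above the 1 left, was then 12.8% to 21%, and the share below 14.2% to 24.2%. Over all tested genes the median difference was -0.0017, and 48.6% were higher in the diabetic hearts.

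**Figure D1:**
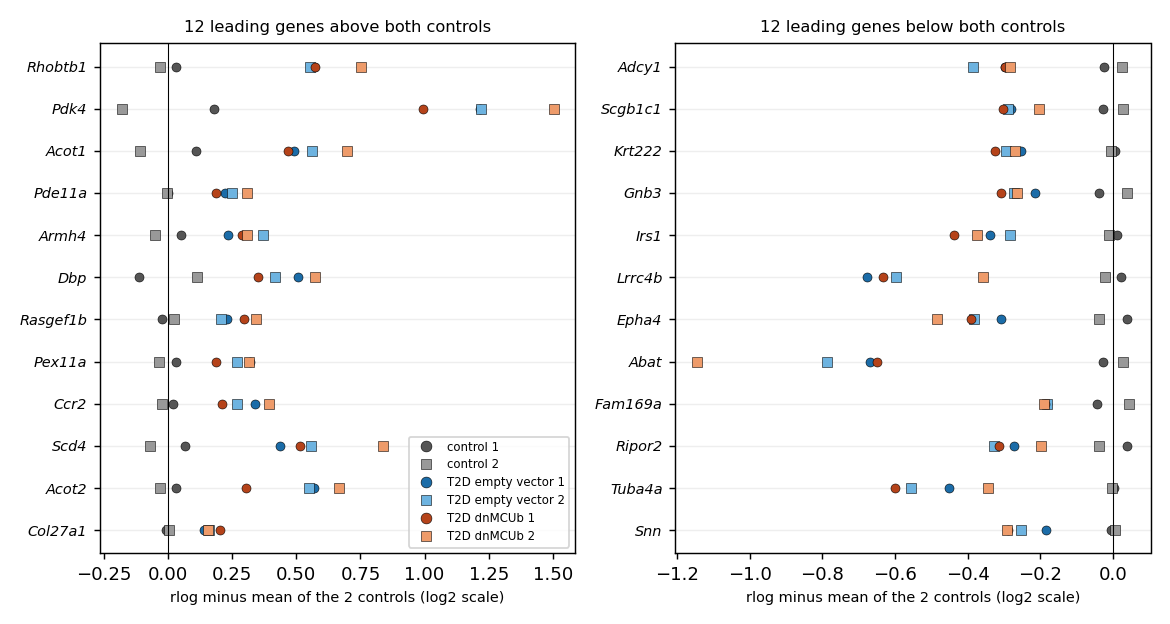
The 12 genes above and the 12 genes below both controls with the smallest p in the pooled comparison. The x axis is rlog minus the mean of the 2 controls (log2 scale), and each point is 1 library. Pdk4 spans the widest range above, with a mean difference of 1.23, and Abat the widest below, at -0.81.

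Among the genes named here, the largest difference belonged to a fuel gene that PPAR alpha switches on. Pdk4 (chr6:5483351-5496309, GRCm38), the kinase that shuts off pyruvate dehydrogenase, had rlog values of 12.67 and 12.31 in the controls, 13.71 and 13.71 with empty vector, and 13.49 and 13.99 with dnMCUb. Every diabetic library lay above both controls by a wide gap, and the difference of means was 1.23 (SE 0.14, limma adjusted p = 0.0641).

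Acot1 and Acot2, neighbouring genes on chromosome 12 for cytosolic and mitochondrial thioesterases that split fatty acyl-CoA, were also higher in each diabetic heart. Acot1 measured 8.47 and 8.25 in the controls, 8.85 and 8.92 with empty vector, and 8.83 and 9.06 with dnMCUb, a difference of 0.55 (SE 0.08, limma adjusted p = 0.0795). Acot2 measured 10.99 and 10.93, 11.53 and 11.51, and 11.27 and 11.63 in the same order, a difference of 0.52 (SE 0.09). In both genes the nearest diabetic library was dnMCUb replicate 1, which still lay above both controls. The 2 genes are close copies, and how reads matching both were counted is not given in the sources used here. Of the 24 tested PPAR alpha targets, all 24 were higher on average and 10 stood above both controls in every diabetic library (10% of all genes did), with a median difference of 0.15, against -0.0017 over all genes. Leaving out 1 library at a time kept that median between 0.115 and 0.189, and at least 22 of the 24 higher. The 10 became 19 without control replicate 1 and 20 without dnMCUb replicate 1, when 19.5% and 13.2% of all genes were above. Ucp3, an uncoupling protein of muscle mitochondria named here after its values were seen, differed by 0.54 (SE 0.14) and stood above both controls.

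The wider fatty acid list leaned the same way. Of 33 tested genes of uptake and oxidation, which include Acot1, Acot2 and other PPAR alpha targets, 28 were higher and 5 lower. The median was 0.09, with 7 above both controls and 2 below, against 10% and 11.9% of all genes. The 7 became 16 without control replicate 1 and 21 without dnMCUb replicate 1, when 19.5% and 13.2% of all genes were above. The median was 0.05 without control replicate 2, 0.15 without dnMCUb replicate 1 and 0.06 without dnMCUb replicate 2. Slc27a1, a fatty acid transport protein, was higher by 0.25 (SE 0.08), but its nearest diabetic library lay only 0.010 above the higher control, and without control replicate 2 the difference was 0.14. Acsl3, a long-chain acyl-CoA synthetase, was lower by 0.12, a difference of -0.12 (SE 0.03). Pex11a, which promotes division of peroxisomes, stood at 8.30 and 8.24 in the controls, 8.59 and 8.54 with empty vector, and 8.46 and 8.59 with dnMCUb. The difference was 0.27 (SE 0.05). Cat, the peroxisomal catalase, was higher by 0.25 (SE 0.07) without overlap.

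Genes that bring glucose into the cell and into the mitochondria stood lower. Of 24 tested genes of glucose uptake and glycolysis, 20 were lower and 4 higher, 11 were below both controls in every diabetic library (11.9% of all genes were) and none was above, and the median was -0.10. Slc2a1, the basal glucose transporter, read 7.86 and 7.84 in the controls, 7.72 and 7.64 with empty vector, and 7.60 and 7.59 with dnMCUb. Slc2a4, the insulin-responsive transporter GLUT4, read 12.83 and 12.76, 12.65 and 12.57, and 12.34 and 12.54 in the same order. Neither overlapped the controls, with differences of -0.22 (SE 0.04) and -0.27 (SE 0.08), and in both the empty-vector hearts lay nearer the controls. Hk1, a hexokinase that traps glucose in the cell, was lower by 0.28 on the log2 scale, a difference of -0.28 (SE 0.05), and Eno3, the muscle enolase, differed by -0.31 (SE 0.07).

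Of the 14 tested genes of the pyruvate dehydrogenase complex and its regulators, Pdk4 was 1 of only 3 that were higher. The other 11 were lower, 6 of them below both controls (11.9% of all genes were). The median was -0.09, or -0.06 without dnMCUb replicate 1, whereas the mean of the list, Pdk4 included, was 0.0051. Pdhx, which holds the complex together, differed by -0.15 (SE 0.06), and the phosphatases that switch the complex on, Pdp1 and Pdp2, by -0.10 (SE 0.05) and -0.17 (SE 0.07). Each of these lay below both controls in all 4 diabetic libraries, and Pdp1 differed by -0.05 without control replicate 1 and -0.14 without control replicate 2.

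Insulin signalling genes showed no common direction, with 13 of 26 higher and 13 lower and a median of -0.0046, whose sign turned without dnMCUb replicate 1. Irs1 (chr1:82233101-82291416, GRCm38), the adaptor that links the insulin receptor to PI3 kinase, was the exception by size. It measured 10.41 and 10.39 in the controls, 10.06 and 10.12 with empty vector, and 9.96 and 10.03 with dnMCUb, a difference of -0.36 (SE 0.05, limma adjusted p = 0.0795). The controls lay close together and every diabetic library was at least 0.27 below them. Akt1, a kinase further down the pathway, differed by -0.14 (SE 0.05) and Pik3r1, a regulatory subunit of PI3 kinase, by 0.12 (SE 0.05), both without overlap.

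Ketone body and branched chain amino acid breakdown stood lower nearly throughout. Of 22 tested genes 21 were lower, with a median of -0.11. In all diabetic libraries 11 were below both controls (11.9% of all genes were) and none was above. Without control replicate 2 there were 17 below, when 24.2% of all genes were. Oxct1, the enzyme that activates ketone bodies for oxidation outside the liver, read 14.77 and 14.76 in the controls, 14.58 and 14.48 with empty vector, and 14.30 and 14.33 with dnMCUb. The dnMCUb libraries were lowest and the control libraries highest, with a difference of -0.34 (SE 0.09). Acadsb, Bckdhb and Dbt, which act in breakdown of branched chain amino acids, differed by -0.22 (SE 0.05), -0.23 (SE 0.06) and -0.21 (SE 0.06). Bdh1, which turns beta-hydroxybutyrate into acetoacetate and is named here after its values were seen, spread from 9.05 to 10.60 in the diabetic hearts and overlapped the controls at 10.32 and 10.75.

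Abat (chr16:8513429-8621568, GRCm38), the mitochondrial transaminase that breaks down GABA, was the gene with the largest difference among those below both controls. It stood at 9.08 and 9.14 in the controls, 8.44 and 8.32 with empty vector, and 8.46 and 7.96 with dnMCUb. The gap between the nearest libraries was 0.62, and the difference was -0.81 (SE 0.12, limma adjusted p = 0.118). Aldh5a1, the next enzyme of the same route, differed by -0.16 (SE 0.05) and also stood below both controls, and the third tested gene of this list, the taurine transporter Slc6a6, was higher by 0.12 (SE 0.06) with overlap, and by 0.02 without control replicate 1.

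Enzymes of the citric acid cycle and its feeder reactions were all lower on average, 21 of 21, with a median of -0.08. Only 5 stood below both controls (11.9% of all genes did). The 5 became 13 without control replicate 2, when 24.2% of all genes stood below, and 8 without dnMCUb replicate 2, when 17.4% did. The median was -0.04 without control replicate 1 or dnMCUb replicate 1 and -0.13 without control replicate 2. Pcx, which makes oxaloacetate from pyruvate, read 9.22 and 9.13 in the controls, 9.02 and 8.94 with empty vector, and 8.84 and 8.88 with dnMCUb, a difference of -0.25 (SE 0.06). Of 60 tested nuclear genes of the respiratory chain, 58 were lower, yet only 6 were below both controls, 10% against 11.9% of all genes, and none above, with a median of -0.07. These counts rested on single libraries, with 36 below without control replicate 2, when 24.2% of all genes were, and 25 without dnMCUb replicate 2, when 17.4% were. The median of the respiratory chain list was -0.04 without control replicate 1 or dnMCUb replicate 1 and -0.11 without control replicate 2. In both lists dnMCUb replicate 1 was the lowest library, at a mean of -0.17 and -0.14 from the gene means. Without it the counts of lower genes were 17 of 21 and 51 of 60, and without control replicate 1 they were 18 and 47. The 9 tested genes of the mitochondrial genome had a median of 0.02, whose sign turned without control replicate 2 and without dnMCUb replicate 2.

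**Figure D2:**
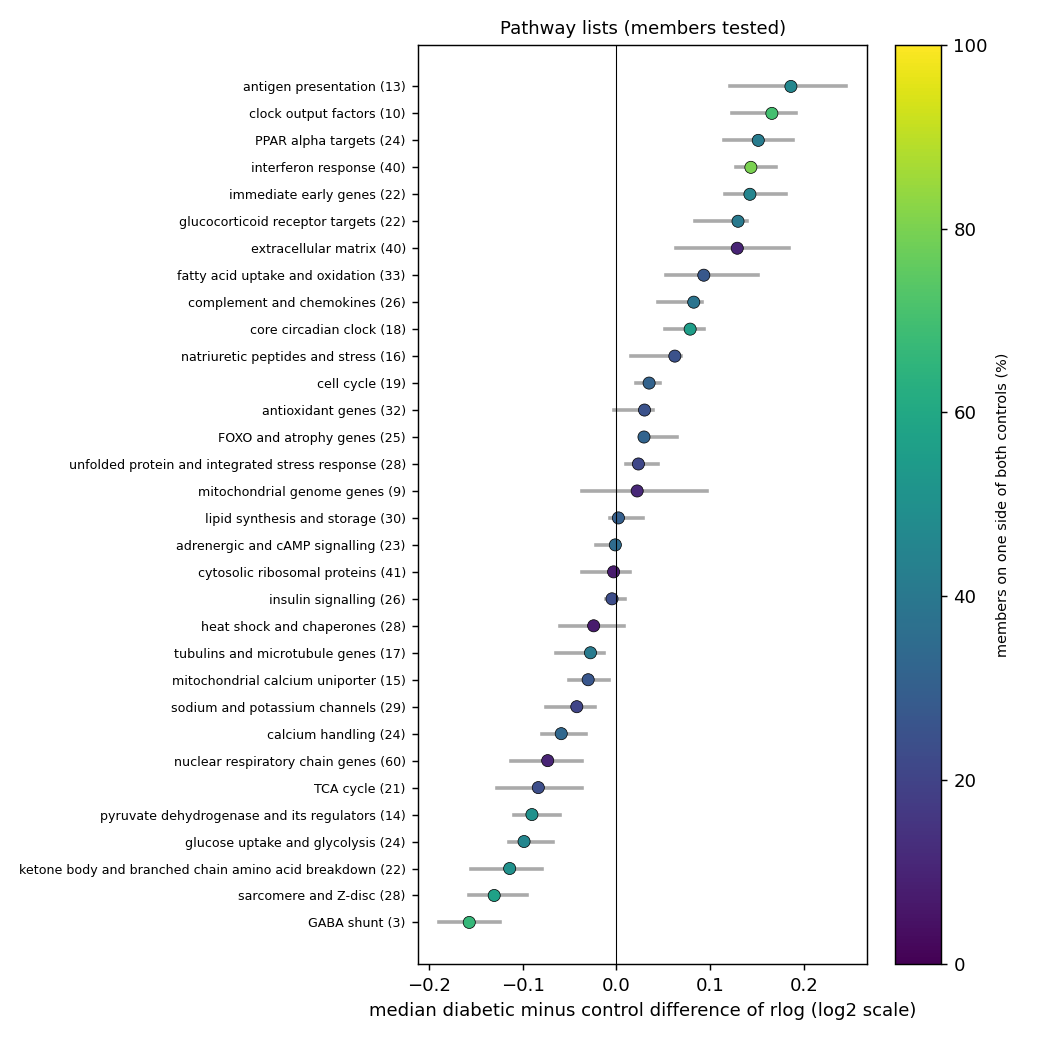
Median difference between the diabetic and control means for each of the 32 pathway lists, with the number of tested members in brackets. Grey bars span the medians when each library is left out in turn, and colour gives the percent of members with all 4 diabetic libraries on one side of both controls. The lists run from -0.16 for the GABA shunt to 0.19 for antigen presentation, and the interferon response has the highest percent, at 80%.

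Fat synthesis and storage held single genes in each direction. Scd4, a fatty acid desaturase of the heart, measured 8.49 and 8.35 in the controls, 8.86 and 8.98 with empty vector, and 8.93 and 9.26 with dnMCUb, a difference of 0.59 (SE 0.10, limma adjusted p = 0.136). As chosen, the 4 diabetic values lay above both controls. Lipe, the hormone-sensitive lipase that releases stored fat, was higher by 0.27 (SE 0.05), while Lpin1, a phosphatidate phosphatase, differed by -0.29 (SE 0.06). Of 30 tested genes 16 were higher and 14 lower, and the median of 0.0022 changed sign without control replicate 2, without dnMCUb replicate 1, with centred libraries and with the empty-vector arm alone. Of the 7 adipocyte markers tested, which include Lipe, 5 were higher and 4 above both controls (10% of all genes were). The 5 higher were Lipe, Pparg, Fabp4, Cidea and Plin4, while Car3 and Slc36a2 were lower with overlap. Adipoq, Plin1, Lep, Cfd, Retn, Cidec and Ucp1 did not reach the level tested, and each overlapped the controls. Adipoq read 4.19 and 3.99 in the controls and 3.97 to 4.15 in the diabetic hearts. The part of adipocytes in these values was not tested.

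Clock genes stood on either side of the controls. Arntl, the gene for BMAL1, read 8.40 and 8.35 in the controls, 7.97 and 8.03 with empty vector, and 8.09 and 7.78 with dnMCUb, a difference of -0.41 (SE 0.07, limma adjusted p = 0.172). Dbp, an output factor that the BMAL1 and CLOCK pair drives, read 9.70 and 9.93 in the controls, 10.32 and 10.23 with empty vector, and 10.17 and 10.39 with dnMCUb, a difference of 0.46 (SE 0.08, limma adjusted p = 0.136). Every diabetic library was lower than both controls for the first gene and higher for the second. Of 18 tested core clock genes 7 stood above both controls and 3 below, which is 55.6% against 21.9% of all genes, and their median was 0.08, or 0.05 without control replicate 1. Of 10 output factors 5 stood above and 2 below, which is 70% against the same 21.9%, and the median was 0.17.

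Members of the activator and repressor limbs are given in turn. Beside Arntl, its partner Clock, named after its values were seen, was below both controls with a difference of -0.16 (SE 0.05). The repressors Nr1d2, Per3 and Bhlhe41 were above both controls, by 0.25 (SE 0.05), 0.21 (SE 0.05) and 0.18 (SE 0.04). The repressor Cry1, named after its values were seen, stood below both controls instead, with a gap of 0.0033 and a difference of -0.12 (SE 0.04). Per2, also named after its values were seen, read 7.71 and 7.79 in the controls, 8.08 and 7.88 with empty vector, and 8.10 and 8.41 with dnMCUb. Among the listed output genes Tef, a relative of Dbp, was higher by 0.26 (SE 0.07) and Pfkfb3, which makes an activator of glycolysis, by 0.17 (SE 0.04). Leo1, a general transcription elongation factor placed in that list, stood below both controls and differed by -0.24 (SE 0.05). Whether Leo1 follows the clock was not tested. The hour at which the hearts were taken is not given in the sources used here.

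**Figure D3:**
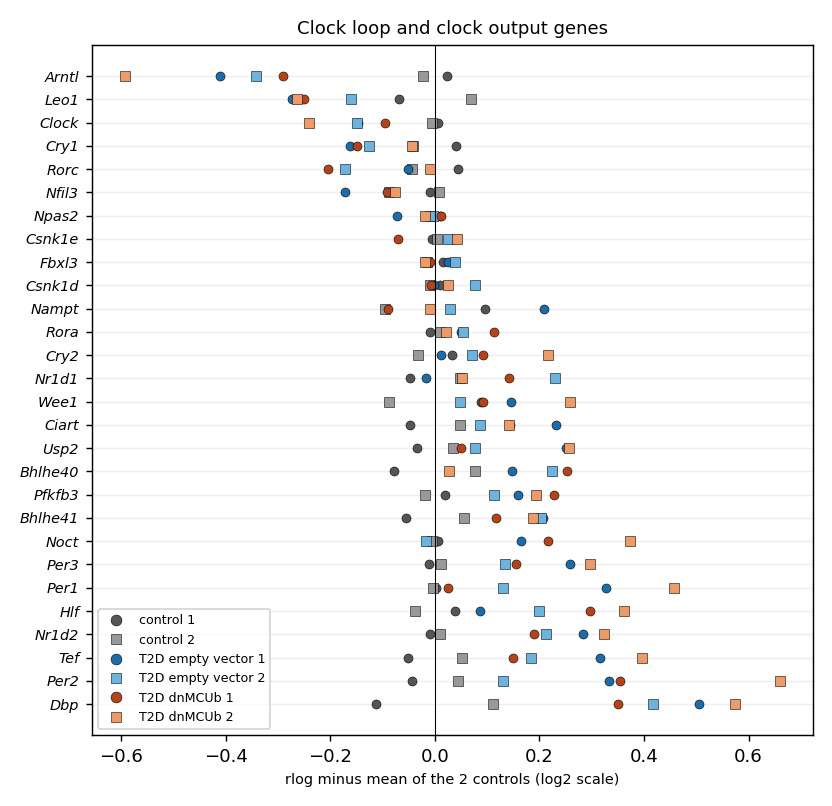
Core clock genes and output factors, each point 1 library, as rlog minus the mean of the 2 controls (log2 scale). Arntl, Leo1, Clock and Cry1 have all 4 diabetic libraries left of both controls, and Dbp, Per2, Tef and Nr1d2 have them to the right.

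The promoters of several of these genes carry letters that clock factors are known to read. In windows from 250 bases before to 50 after the start of transcription (RefSeq, GRCm38.p6), the E-box CACGTG, searched on both strands, was found for 4 of the 13 core clock genes with a window (Bhlhe41, Ciart, Cry1 and Per1) and for 2 of 9 output genes (Pfkfb3 and Tef). Of these, Cry1 stood below both controls and the others above. Over all 27025 genes with a window the share was 8.09%. The ROR element, read by the ROR and NR1D receptors, was found for Arntl alone among the core clock genes and for Leo1 among the output genes, against 0.459% of all genes. The D-box, read by DBP and TEF, was found for Per3 alone, against 1.86%, and for none of the 9 output genes. A match describes letters and not binding. The stretches below show the E-box in capitals for 3 genes whose diabetic libraries all stood above the controls, and the ROR element in capitals for Arntl, whose libraries all stood below. They lie at chr6:145865528-145865613 (minus strand), chr3:95882227-95882384 (minus strand), chr15:81802506-81802591 (plus strand) and chr7:113207497-113207560 (plus strand), written 5′ to 3′ along each gene.
Bhlhe41: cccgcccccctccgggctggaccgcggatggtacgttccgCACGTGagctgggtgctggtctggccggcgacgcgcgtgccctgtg
Ciart: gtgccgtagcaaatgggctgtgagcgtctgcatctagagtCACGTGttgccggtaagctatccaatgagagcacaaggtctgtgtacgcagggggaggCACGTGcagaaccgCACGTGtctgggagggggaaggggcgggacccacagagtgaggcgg
Tef: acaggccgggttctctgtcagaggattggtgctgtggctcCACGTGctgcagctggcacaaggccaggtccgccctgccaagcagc
Arntl: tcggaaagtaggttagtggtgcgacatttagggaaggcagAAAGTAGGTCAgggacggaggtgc
Ciart, a repressor of the clock, holds the E-box 3 times in its stretch, and its diabetic minus control difference was 0.15 (SE 0.04). The Arntl element lies just after the start of transcription.

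Targets of the glucocorticoid receptor stood mostly higher. Of 22 tested genes, some of them also in the clock or FOXO lists, 20 were higher. In all diabetic libraries 9 were above both controls (10% of all genes were) and none below. The median was 0.13, or 0.08 without dnMCUb replicate 2. Fkbp5, a chaperone partner that dampens the receptor, read 8.06 and 8.14 in the controls, 8.38 and 8.25 with empty vector, and 8.66 and 8.48 with dnMCUb. The dnMCUb hearts were highest and the difference was 0.34 (SE 0.09). Klf9 and Cebpd, transcription factors switched on by glucocorticoids, were above both controls by 0.15 (SE 0.05) and 0.15 (SE 0.06).

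Contractile genes were lower. Of 28 tested sarcomere and Z-disc genes 25 were lower, with a median of -0.13. In every diabetic library 15 stood below both controls and 1 above, against 11.9% and 10% of all genes. Tnnc1, the calcium sensor troponin C, read 13.57 and 13.65 in the controls, 13.43 and 13.37 with empty vector, and 13.22 and 13.34 with dnMCUb, a difference of -0.27 (SE 0.07). Mybpc3, cardiac myosin binding protein C, differed by -0.28 (SE 0.09) without overlap, and Tcap, which caps titin at the Z-disc, was the 1 gene above both controls, by 0.17 (SE 0.07). The mean of the list lay at 0.09 and 0.08 in the controls, -0.03 and 0.01 with empty vector, and -0.15 and -0.01 with dnMCUb, so that dnMCUb replicate 1 was lowest. Without that library 25 genes were still lower and 15 below both controls, when 14.2% of all genes were below. Markers of ventricular myocytes, which share several of these genes, summed on the linear scale to 1250000 to 1333000 in control, 1181000 to 1188000 in T2D empty vector and 1032000 to 1253000 in T2D dnMCUb hearts. In these bulk samples fewer cells of a type and less RNA per cell cannot be told apart.

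Calcium handling and excitation followed with smaller differences. Rrad, a small GTPase that restrains the L-type calcium channel, stood at 12.07 and 12.08 in the controls, 11.59 and 11.87 with empty vector, and 11.56 and 11.64 with dnMCUb. All diabetic values were lower, though unevenly so, and the difference was -0.41 (SE 0.08). Camk2d, the calcium and calmodulin dependent kinase, Asph and the sodium-calcium exchanger Slc8a1 differed by -0.18 (SE 0.04), -0.17 (SE 0.04) and -0.19 (SE 0.06), all without overlap. Of 24 tested calcium genes 18 were lower, with a median of -0.06, or -0.03 without control replicate 1. Below both controls were 8 (11.9% of all genes were) and above them none.

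Of 29 tested sodium and potassium channel and gap junction genes 21 were lower, 4 were below both controls and 2 above. That is 20.7% on one side, near the 21.9% of all genes. The 4 became 8, 12 and 9 without control replicate 1, control replicate 2 and dnMCUb replicate 2. Of all genes 21.9%, 24.2% and 17.4% were then below. Gja1, the main gap junction protein of ventricular muscle, differed by -0.25 (SE 0.06) and Kcnip2, a subunit of the transient outward potassium channel, by -0.19 (SE 0.07). Scn4b, a beta subunit of the sodium channel, read 10.54 and 10.64 in the controls, 11.32 and 10.99 with empty vector, and 10.84 and 10.80 with dnMCUb. Both arms lay above the controls, with the difference at 0.40 (SE 0.13), and the dnMCUb arm lay 0.33 below the empty-vector arm, a difference of -0.33 (SE 0.10, unadjusted p = 0.00989 and adjusted p = 0.784 in limma).

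Signalling by cyclic AMP held 2 of the leading genes, in opposite directions to each other. Adcy1, an adenylyl cyclase that makes cyclic AMP, read 7.60 and 7.65 in the controls, 7.32 and 7.24 with empty vector, and 7.33 and 7.34 with dnMCUb, a difference of -0.32 (SE 0.04, limma adjusted p = 0.0641). Pde11a, a phosphodiesterase that breaks down cyclic AMP and cyclic GMP, was at 6.74 and 6.74, 6.96 and 6.99, and 6.93 and 7.05 in the same order, a difference of 0.24 (SE 0.04, adjusted p = 0.118 in limma). As chosen, neither gene overlapped between the groups, and the gap for Pde11a was 0.18. Gnb3, a G protein beta subunit, differed by -0.27 (SE 0.03, limma adjusted p = 0.0767), Grk5, a kinase that desensitises adrenergic receptors, by 0.30 (SE 0.06), and Akap5, an anchor of protein kinase A, by -0.26 (SE 0.05). As a list the 23 tested adrenergic and cyclic AMP genes were balanced, with 11 higher, 12 lower and a median of -0.0010, or -0.02 without control replicate 1.

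Tubulin genes differed by isotype. Tuba4a measured 13.72 and 13.71 in the controls, 13.27 and 13.16 with empty vector, and 13.12 and 13.37 with dnMCUb, a difference of -0.49 (SE 0.08, limma adjusted p = 0.118). Tuba8, another alpha tubulin, measured 11.41 and 11.62, 11.06 and 11.02, and 10.98 and 11.23 in the same order, a difference of -0.45 (SE 0.08). As chosen, neither gene overlapped the controls. Of 17 tested tubulin and microtubule genes 5 stood below both controls (11.9% of all genes did) and 2 above (10% of all genes did). The median of -0.03 was -0.06 without control replicate 1, -0.04 without dnMCUb replicate 1 and -0.01 without control replicate 2.

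The natriuretic peptides, hormones released by stretched heart muscle, were not higher. Nppb, which encodes brain natriuretic peptide, read 11.06 and 11.53 in the controls, 10.87 and 10.71 with empty vector, and 10.72 and 10.57 with dnMCUb. All 4 diabetic libraries lay below both controls, which were themselves apart, and the difference was -0.58 (SE 0.12). Without control replicate 2 it was -0.34. Nppa, the atrial peptide, ran from 9.63 to 10.89 in diabetic hearts and overlapped the controls at 10.52 and 11.01, with a difference of -0.62 (SE 0.29, unadjusted p = 0.0617 in limma) that was -0.37 without control replicate 2. Atrial myocyte markers were uneven between libraries, at a mean of 0.74 above the gene means in dnMCUb replicate 1 and 0.31 in control replicate 1, and -0.12 to -0.34 in the other 4. Their part in the Nppa values was not tested.

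Other leading genes belong to no list used here. Rhobtb1 (chr10:69212634-69291791, GRCm38), a BTB domain protein that serves as an adaptor of the Cul3 ubiquitin ligase, had the smallest p of all genes. It read 10.61 and 10.55 in the controls, 11.15 and 11.13 with empty vector, and 11.15 and 11.33 with dnMCUb, a difference of 0.61 (SE 0.06, limma adjusted p = 0.0620). The nearest diabetic library lay 0.52 above the higher control.

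Lrrc4b, a leucine-rich adhesion protein best known at synapses, read 8.14 and 8.09 in the controls, 7.44 and 7.52 with empty vector, and 7.48 and 7.76 with dnMCUb. As chosen, all were lower than the controls, with dnMCUb replicate 2 nearest, and the difference was -0.57 (SE 0.08, limma adjusted p = 0.0795). Epha4, an ephrin receptor, differed by -0.39 (SE 0.05) and Ndrg4, a member of the NDRG family expressed in heart and nerve, by -0.47 (SE 0.11). The rest of the leading genes below both controls, with differences from -0.29 to -0.19, were Krt222, Scgb1c1, Ripor2, Snn and Fam169a. Above both controls were also Armh4 at 0.30 (SE 0.05), Rasgef1b, an exchange factor for Ras family proteins, at 0.27 (SE 0.05), and Col27a1, a fibrillar collagen, at 0.16 (SE 0.03).

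Interferon-response genes gave the most even list. Of 40 tested members all 40 were higher on average, 32 stood above both controls in every diabetic library (80%, against 10% of all genes) and none below, and the median was 0.14, between 0.127 and 0.170 with each library left out. Without control replicate 2, 38 of the 40 were higher. At an unadjusted p under 0.05 there were 29, and none passed after adjustment in limma. Rsad2, an antiviral enzyme, read 8.88 and 8.96 in the controls, 9.16 and 9.18 with empty vector, and 9.30 and 9.34 with dnMCUb, a difference of 0.32 (SE 0.06). Rtp4, Gbp2 and Gbp7, all interferon-induced, were higher by 0.24 (SE 0.05), 0.24 (SE 0.06) and 0.21 (SE 0.06). The libraries lay in the order control, empty vector, dnMCUb in each of these 4 genes.

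That order held for the list as a whole. Its mean from the gene means was -0.107 and -0.114 in the controls, -0.024 and -0.004 with empty vector, and 0.124 and 0.125 with dnMCUb. The median difference from control was 0.09 in the empty-vector arm and 0.21 in the dnMCUb arm, 2 values that share the same controls, and the median between the arms was 0.13. Irf7, the transcription factor that amplifies the response, was named after its values were seen and had the smallest p of all genes between the arms. It read 7.77 and 7.69 in the controls, 7.88 and 7.89 with empty vector, and 8.29 and 8.46 with dnMCUb, a step of 0.49 between the arms (SE 0.06, adjusted p = 0.646 in limma). Since every diabetic mouse had received a virus and none is listed for the controls, the part of the virus and of diabetes in these values cannot be told apart.

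The interferon-stimulated response element, searched as TTTCNNTTTC on both strands, was found in the promoter windows of 18 of the 30 listed interferon genes with a window (60%), against 3.99% of all genes. Other elements searched for other lists on both strands gave few matches. The PPAR element, AGGTCA repeated after a gap of 1 base, was found for none of 19 PPAR alpha targets with a window, against 0.0481% of all genes, and the glucocorticoid element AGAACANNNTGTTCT for 1 of 18 receptor targets, Sgk1, against 0.0111%. The stretches below are shown because their genes stood above both controls together. Capitals mark the element, which reads as its reverse complement in Isg15. They lie at chr12:26456523-26456612 (minus strand), chr19:34640745-34640853 (plus strand) and chr4:156200835-156200936 (minus strand) of GRCm38.p6, from RefSeq, 5′ to 3′ along each gene.
Rsad2: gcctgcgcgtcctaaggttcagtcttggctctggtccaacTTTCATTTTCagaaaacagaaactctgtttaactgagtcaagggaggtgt
Ifit1: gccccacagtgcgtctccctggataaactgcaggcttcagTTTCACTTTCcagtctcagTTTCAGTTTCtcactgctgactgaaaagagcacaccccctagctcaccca
Isg15: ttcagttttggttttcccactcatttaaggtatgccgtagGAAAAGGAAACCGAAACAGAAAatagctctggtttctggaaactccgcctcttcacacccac
Ifit1, which binds foreign RNA, holds 2 matches, and its rlog values were 7.61 and 7.57 in the controls, 7.77 and 7.87 with empty vector, and 8.08 and 8.20 with dnMCUb. Isg15, a ubiquitin-like protein, holds 3 overlapping matches and read 5.32 and 5.32, 5.36 and 5.36, and 5.45 and 5.50 in the same order. Both genes rank in the same order of groups as Rsad2, which holds 1 match.

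**Figure D4:**
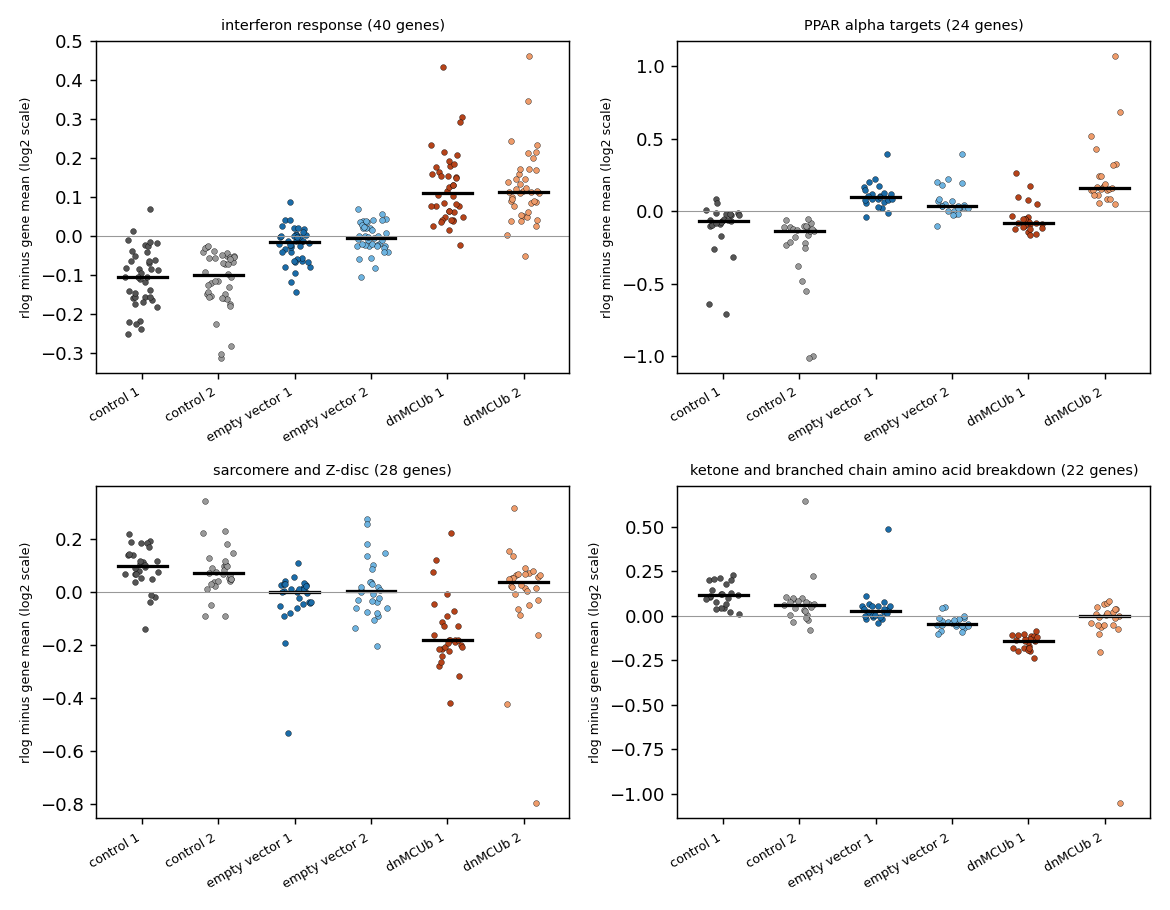
Members of 4 gene lists in each library, as rlog minus the mean of the gene over the 6 libraries (log2 scale). Each point is 1 gene and each bar the median of the list. The interferon genes step up from control to empty vector to dnMCUb, and dnMCUb replicate 1 has the lowest bar for sarcomere genes and for ketone and branched chain amino acid genes.

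Antigen presentation and complement genes stood higher beside them. All 13 tested antigen presentation genes were higher on average, 6 of them above both controls (10% of all genes were). Without control replicate 1 there were 12, when 19.5% of all genes were above. The median was 0.19, or 0.12 without dnMCUb replicate 2. B2m, the light chain of class I molecules, read 11.93 and 11.90 in the controls, 12.06 and 12.04 with empty vector, and 12.31 and 12.26 with dnMCUb, a difference of 0.26 (SE 0.08). The class I heavy chain H2-K1 was higher by 0.23 (SE 0.08), likewise with the dnMCUb hearts highest. Of 26 tested complement and chemokine genes 21 were higher, 10 were above both controls (10% of all genes were) and none below. C4b and C3, complement proteins, were higher by 0.55 (SE 0.14) and 0.34 (SE 0.09) without overlap.

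Ccr2, the receptor that draws monocytes to tissue, stood at 7.54 and 7.50 in the controls, 7.85 and 7.79 with empty vector, and 7.73 and 7.91 with dnMCUb, a difference of 0.30 (SE 0.05, limma adjusted p = 0.136). As chosen, the 4 diabetic libraries lay above both controls. Of 19 tested macrophage markers, Ccr2 among them, 18 were higher, with a median of 0.06. Only 4 were above both controls (10% of all genes were). There were 10 above without control replicate 1 or without empty-vector replicate 2, when 19.5% and 12.8% of all genes were. Their sums on the linear scale ran from 10970 to 11060 in control, 10990 to 11630 in T2D empty vector and 11510 to 13160 in T2D dnMCUb hearts. The part of macrophage number in the interferon and complement values was not tested. Of 8 neutrophil and 14 lymphocyte markers 1 each reached the level tested.

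Immediate early genes, the first to answer a stimulus, were higher for all 22 tested (20 without control replicate 1), with a median of 0.14. In all diabetic libraries 10 were above both controls (10% of all genes were) and none below. There were 19 above without control replicate 2, when 21% of all genes were. Btg2, an early growth-arrest gene, read 9.79 and 9.91 in the controls, 10.31 and 9.95 with empty vector, and 10.13 and 10.37 with dnMCUb. Empty-vector replicate 2 lay just above the higher control, and the difference was 0.34 (SE 0.11). Jun, a subunit of the AP-1 transcription factor, was higher by 0.18 (SE 0.05).

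Extracellular matrix genes were higher on average but did not separate the groups. Of 40 tested genes 35 were higher, with a median of 0.13, yet only 4 stood above both controls, which is 10%, the same as over all genes. The median was 0.06 without dnMCUb replicate 1. The 4 became 12 without control replicate 1 and 11 without empty-vector replicate 1, when 19.5% and 14.2% of all genes were above. Timp3, an inhibitor of matrix proteases, read 12.23 and 12.24 in the controls, 12.34 and 12.57 with empty vector, and 12.99 and 12.60 with dnMCUb, and Agrn, a basement membrane proteoglycan, was higher by 0.24 (SE 0.05). The list's mean was highest in dnMCUb replicate 1 at 0.33 and empty-vector replicate 2 at 0.19, and lay from -0.16 to -0.09 in the other 4 libraries, diabetic and control. Fibroblast markers moved with it, at 0.33 and 0.11 in those libraries and -0.14 to -0.08 elsewhere, with summed levels of 56280 to 60220 in control, 57550 to 69030 in T2D empty vector and 63030 to 85150 in T2D dnMCUb hearts. Their part in the matrix values was not tested.

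The 2 diabetic arms were compared for the genes above. In a 3-group fit, limma called no gene between dnMCUb and empty vector (0%), with 739 genes at an unadjusted p under 0.05 (5.64%). Against the same 2 controls it called no gene in the empty-vector arm (0%) and 9 in the dnMCUb arm (0.0687%), a difference in counts that was not itself tested. At an unadjusted p under 0.05 there were 803 and 1497. The order turned round when each arm was fitted alone with the controls, with 30 genes called for empty vector and none for dnMCUb (1351 and 1226 at an unadjusted p under 0.05). The 9 of the 3-group fit included Rhobtb1, Irs1, Rsad2, Ifit1 and Irf7. Rhobtb1, Irs1 and Rsad2 passed only just, each with an adjusted p of 0.04999 in limma. Rasgef1b, at 0.0523, did not pass. The arms stood on opposite sides of both controls for 287 genes (2.19%), none of them among the genes named by rule. Genes named for standing on one side cannot be among the 287, and a small pooled p makes it unlikely. That absence therefore says nothing on how alike the arms are. Of the leading genes, Irs1, Lrrc4b, Rasgef1b and Scd4 had the smallest p between the arms, with dnMCUb minus empty vector differences of -0.09 (SE 0.05), 0.14 (SE 0.08), 0.10 (SE 0.04) and 0.18 (SE 0.10) and adjusted p from 0.869 to 0.888 in limma.

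The authors' deposited table gives each arm against control as log2 folds, which are larger than the rlog differences for the genes quoted here. Whether these folds were shrunken is not given in the sources used here. For Pdk4 the authors' deposited table lists log2 folds of 1.79 (adjusted p 6.62e-07) for empty vector and 1.86 (adjusted p 0.00903) for dnMCUb. For Rhobtb1 the authors' deposited table lists 0.90 (adjusted p 7.6e-16) and 1.06 (adjusted p 3.66e-10), and for Dbp 0.79 (adjusted p 2.43e-05) and 0.80 (adjusted p 0.00364). For Abat the authors' deposited table lists -1.47 with an adjusted p of 1.29e-17 for empty vector, and -1.85 with an adjusted p of 0.384 for dnMCUb, the arm with the wider spread in that gene. Over the 13094 genes the authors' deposited table has 71 with an adjusted p under 0.05 for empty vector against control (0.542%), 104 for dnMCUb against control (0.794%) and 8 for dnMCUb against empty vector (0.0611%). All 8 were higher with dnMCUb. They included Irf7, at a log2 fold of 1.27 and an adjusted p of 9.16e-05 in the authors' deposited table, and globin genes. For Irs1, Lrrc4b, Rasgef1b and Scd4 the authors' deposited table gives an adjusted p that rounds to 1 between the arms.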

How the data were processed

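Of 6 mouse heart libraries the authors deposited 1 table, with rlog values per gene and library and their own log2 fold changes and adjusted p-values for each diabetic arm against control and between the arms. Per the submitters' processing notes, STAR 2.5.2a, DESeq2 and bcl2fastq 2.20.0.422 were used, and GRCm38, mm10 and hg38 are listed as builds with no role stated. The counter, its use of strand and the depth are not stated in the labels or the table. The deposited rlog (log2) values are shrunken towards each gene's mean, so low genes differ less than their counts would. The deposited p-value columns are quoted only as the authors' own.

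Of 54352 rows, 22778 were at 0 in every library, and 13094 had a mean rlog of at least 5. Symbols that a spreadsheet had turned into dates were restored for 26 rows by gene ID. The main test was limma 3.58.1 (R 4.3.3) with a mean-variance trend, fitted over all 13094 genes with 2 levels, diabetic and control, and Benjamini-Hochberg adjustment at 0.05. It had 4 residual degrees of freedom. For a single value an exact permutation test of 4 against 2 libraries cannot go below p = 0.0667 (1 of 15 arrangements), so none was used. The fit was tested on simulated data before use. Lists are described by counts and medians, and linear sums add 2 to the power of rlog.

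Genes were named by rule: the 12 per direction with the smallest p among genes on one side, the 6 per direction with the largest difference, up to 4 members of each pathway list with the smallest p, up to 4 leading genes with the smallest p between the arms, a fixed set (Mcub, Mcu, Pdk4, Nppa, Nppb, Irs1, Slc2a4, Abat), and the genes beside the limit of 5. Numbered Gm, Rik and AC symbols and pseudogenes were left out of the first 2 parts. Cell type lists are given by counts and sums. A few genes that the rule names are not reported here. The members, the 32 pathway and 15 cell type lists and the tests were chosen with earlier results of these data known, and the promoters shown after the values were seen. Promoter windows are RefSeq's (GRCm38.p6), and gene positions come from GENCODE on GRCm38. Alternatives were other fits, filters, centring, a replicate block, each arm alone and leaving out each library.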

Additional observations from a re-analysis of the deposited data

Results flagged for a closer look

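Of 32 leading, fixed and arm-compared genes screened over the 4 diabetic libraries, 3 had 1 library farther from the rest than Dixon's 95% critical value for 4 samples allows, and chance flags about 1 in 20 groups. Rhobtb1 read 11.33 in dnMCUb replicate 2 against 11.13 to 11.15 in the other 3. Adcy1 read 7.238 in T2D empty vector replicate 2 against 7.324 to 7.34, and Mcub read 5.624 in dnMCUb replicate 1 against 5.456 to 5.482. For Rhobtb1 and Adcy1 the odd library lay on the far side from the controls, so the separation of the groups did not rest on it.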

How the results depend on the processing

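With 2 controls the number of genes past the threshold depended on the fit. It was 0 in the main fit, in the 3-group fit, with no mean-variance trend, with centred libraries, with the dnMCUb arm alone and under 3 other filters. It was 7 (1 higher, 6 lower) with robust estimates, 24 (11 higher, 13 lower) with array weights and 30 (13 higher, 17 lower) with the empty-vector arm alone. Leaving out 1 library gave 0 to 17 calls, 0 to 9 higher and 0 to 10 lower: 17 without dnMCUb replicate 1, 16 without dnMCUb replicate 2, and 2 without control replicate 2, both immunoglobulin genes that control replicate 1 held high. Genes on one side numbered 3567 to 5922 with 1 library left out (1674 to 2754 above, 1864 to 3168 below), as fewer libraries must agree, with the highest counts without control replicate 2 (5922) and control replicate 1 (5418), and 160 (85 above, 75 below) with a gap of at least 0.1. Between the arms the count was 0 to 14, the 14 without dnMCUb replicate 1. Same-numbered deviations correlated at -0.0876 for control and empty vector, -0.0133 for control and dnMCUb and -0.511 for the 2 diabetic arms. With 2 libraries per group these values cannot settle whether the replicate numbers pair the libraries. With the replicate block limma called 0 genes (984 at an unadjusted p under 0.05, smallest adjusted p 0.174). Of 141 named genes 140 kept their direction in every alternative and 27 passed in at least 1. The exception was mt-Nd4, at -0.0116 without control replicate 2 and 0.142 without control replicate 1. Unknown depth gives no limit for low genes.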

Other observations

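Small RNAs of the nucleus stood higher in the diabetic hearts. Of 34 tested small nucleolar RNAs, which guide chemical marks on ribosomal RNA, 32 were higher, with a median difference of 0.0567. There were 15 above both controls and none below, against 10% and 11.9% of all genes. When each library was centred on its median, 14 of the 15 were still above, and without control replicate 2 the median difference was 0.086. All 10 small nuclear RNAs, parts of the splicing machinery, were higher, 7 of them above both controls. All 8 small Cajal body RNAs were also higher, but only 1 stood above both controls, near the share of all genes. Of 26 tested microRNAs 17 were higher, with 3 above both controls and 2 below. Small noncoding genes as a class had 29.4% above both controls and 3.67% below, against 10.1% and 12.4% of protein coding genes.

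Further lists differed little. FOXO and atrophy genes were higher for 21 of 25, 7 above both controls (10% of all genes were) and 1 below, with a median of 0.03. Without control replicate 1 there were 11 above, when 19.5% of all genes were, and the median was 0.064. Without dnMCUb replicate 1 the median was 0.06. Bnip3, a mitochondrial receptor for autophagy, was higher by 0.18 (SE 0.06). Of 19 tested cell cycle genes 5 were above both controls (10% of all genes were) and 1 below. There were 8 above without control replicate 2, when 21% of all genes were. The proliferation marker Mki67 was higher by 0.16 (SE 0.05). Heat shock genes and cytosolic ribosomal proteins had 7.143% and 7.317% of their members on one side, below the 21.9% over all genes. Without dnMCUb replicate 2, 10 of 28 heat shock genes and 9 of 41 ribosomal protein genes were below both controls. Of all genes 17.4% were then below. Markers of lung, thymus and oesophagus did not reach the level tested, and Sftpc, Ptcra and Krt5 were listed at 0 in every library. Red cell markers had no member on one side, and their sums ran from 6344 to 9516 in control, 6252 to 6296 in T2D empty vector and 8469 to 11160 in T2D dnMCUb hearts. Over the autosomes and X, the share of genes on one side ran from 17.4% on X to 25.4% on 19.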
